A study of Mus musculus with 8 samples.

Results

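Chdh and 9 further genes of choline and betaine metabolism were examined in common myeloid progenitors (CMPs) of young and old mice. The genes were Chdh, Aldh7a1, Bhmt, Dmgdh, Sardh, Gnmt, Pemt, Chka, Chkb and Pcyt1a, and every non-control probe that the array design gives to one of these names was taken. This gave 21 of 55681 probes and 10 of 34797 gene names. The genes were chosen by name, with the lower signal of Chdh in old mice already known, so the values of Chdh are a description and carry no test. CMPs are bone marrow progenitors of the myeloid lineages and were sorted as Lin-, cKit+, Sca-1-, CD34+ and FcγR low cells. All animals were untreated wildtype C57BL/6J mice, aged 2 to 3 months in the 4 young samples and 22 to 24 months in the 4 old samples according to the sample labels. The study's text speaks of 3 mice per age, whereas the labels give 4 arrays per age, and all 8 arrays were used. The arrays are named here by age and replicate number, young 3 to young 6 and old 2 to old 5, and these numbers do not pair animals.

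RNA of each sample was labelled with 1 dye and hybridized to its own array of 62976 spots. A level is given below as the log2 of the background-corrected intensity relative to the 75th percentile of the same array, so a level of 0 is a signal at that percentile. Levels of different probes cannot be compared with each other. The 75th percentile lay between 352 and 565 on young and between 290 and 518 on old arrays, and the share of probes well above background was 55.7% to 63.2%. Young 3, young 4, old 2 and old 4 shared 1 slide and the other 4 arrays shared a second one, so that age was balanced over the 2 slides. Probes that the scanner software marked as well above background on 4 or more of the 8 arrays entered the fit. A probe was called if limma gave an adjusted p under 0.05 over all 33495 tested probes together with a fold change of at least 1.5. In bulk RNA, fewer cells of a type and less RNA per cell cannot be told apart.

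Choline has several fates in a cell. Choline dehydrogenase, encoded by Chdh, is a flavoprotein of the inner mitochondrial membrane that oxidizes choline to betaine aldehyde, and Aldh7a1 oxidizes this aldehyde to betaine. Bhmt passes a methyl group of betaine to homocysteine, which yields methionine and dimethylglycine, and the mitochondrial enzymes Dmgdh and Sardh then remove the remaining methyl groups to leave glycine. Gnmt works in the opposite direction and methylates glycine to sarcosine. In the competing route, the choline kinases Chka and Chkb and the CDP-choline-forming enzyme Pcyt1a direct choline into phosphatidylcholine, and Pemt makes phosphatidylcholine from phosphatidylethanolamine. The oxidation of choline is known mainly from liver and kidney.

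The array carries 3 probes for Chdh, which lie in sequence on the plus strand of chromosome 14 of the mouse build mm9. The probe on the 5′ side, A_55_P2151817, covers chr14:30849978-30850037. A_52_P432570 at chr14:30851055-30851114 starts 1077 bases further on, and A_51_P292550 at chr14:30853134-30853193 starts 3156 bases further on. Their bases are printed 5′ to 3′ in lower case as the scanner files give them, because the values below differ between the probes. The first probe is printed whole and the other 2 by their first 30 bases. Their order along the gene is also their order from dimmest to brightest, and a difference between the probes was not tested.
A_55_P2151817: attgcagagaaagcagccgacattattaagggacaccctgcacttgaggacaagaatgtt
A_52_P432570: accagcagcatttacaagagctctttgatc
A_51_P292550: tacaaagagaaatttaatattaaatgagag

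Chdh was lower in old mice at all 3 probes. At A_51_P292550, the brightest of them (NM_001136240), the young arrays read −0.88, −0.85, −0.62 and −0.61 in the order of their replicate numbers, and the old arrays read −2.07, −2.44, −2.90 and −2.51. Every old array lay below every young array, and no array fell between the groups. The mean of the young arrays was −0.74 ± 0.15 and that of the old arrays −2.48 ± 0.34 (SD, n = 4 each), a difference of −1.74 on the log2 scale or a 3.35-fold lower signal. Within the slides the differences were −1.62 and −1.87.

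A_52_P432570 (NM_175343) read −2.06, −1.62, −1.40 and −1.74 on young and −2.80, −2.94, −2.83 and −3.02 on old arrays. The groups were apart here too, with the old arrays close together. Young arrays had a mean level of −1.71 ± 0.27 and old arrays one of −2.90 ± 0.10 (SD, n = 4 each), a 2.28-fold lower signal with within-slide log2 differences of −0.97 and −1.41. A_55_P2151817 read −3.93, −3.86, −3.72 and −3.69 on young arrays, all of them well above background. On old arrays it read −5.26, −4.88, −3.91 and −4.10, and only old 4 and old 5 were well above background. The ages therefore overlapped at this dim probe, with old 4 among the young arrays. Its means were −3.80 ± 0.11 and −4.54 ± 0.64 (SD, n = 4 each), a difference of −0.74, and −0.69 and −0.78 within the slides.

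**Figure D1:**
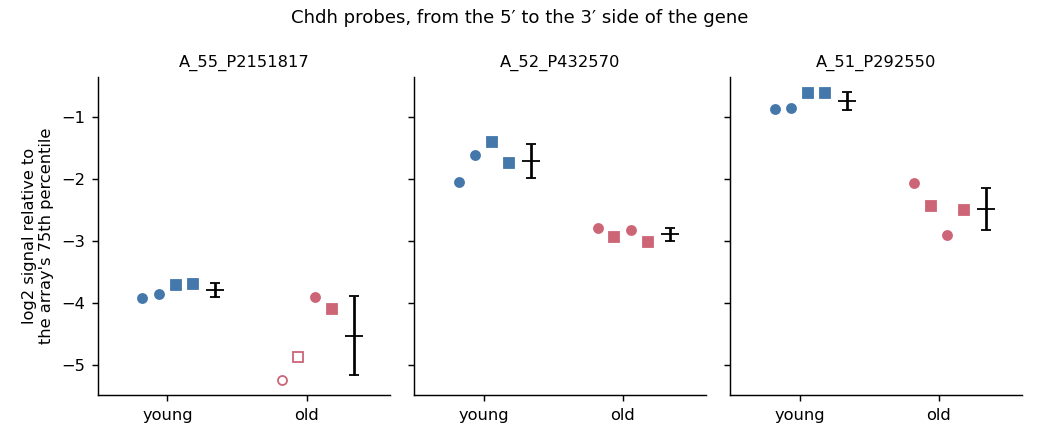
Levels of the 3 Chdh probes on the 8 arrays, as log2 values with the array's 75th percentile at 0, with the 5′ probe on the left and the 3′ probe on the right. Circles and squares are arrays of the first and second slide, open symbols are not well above background, and bars give mean and SD of 4 arrays. The old arrays lie below all young arrays at the middle and right probes, while old 4 (−3.91) lies among the young arrays at the left probe.

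By the rule above, 2 of the 3 Chdh probes were called, and Chdh was the only one of the 10 genes with a called probe. Over all 23177 tested gene names, 10 or 0.0431% had a probe called lower, 0.207% had one called higher and 0.25% had one called in either direction. By probes, the shares were 0.0328% lower and 0.158% higher. Since Chdh was chosen for this difference, nothing is read from its place among them. The call of A_52_P432570 was lost with the slide as a block, with normexp, quantile normalization, the shift to the median, no filter on dim probes and an intensity trend, and whenever an array other than young 3 was left out. The call of the gene was lost without old replicate 3, without old replicate 5 and with the methods' t-test after adjustment, although the log2 difference of the brightest probe was −1.76 and −1.73 without these 2 arrays. A normexp background correction with an offset of 50 reduced the log2 differences to −1.17, −0.57 and −0.05 from the brightest to the dimmest probe.

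Markers of the cells that the gate could hold were read beside Chdh. The gate list of 8 markers expected to be present held Kit, Cd34, Fcgr3 and Fcgr2b for the gate itself. It also held Mpo, Flt3, Csf1r and Cebpa, which are not part of the gate given above. All 8 were well above background. Their summed signal was between 672 and 893 times the 75th percentile on young and between 528 and 595 times on old arrays. Of the 7 markers expected to be absent, Itgam, Cd3e and Ly6a were well above background on all 8 arrays. Ly6a, which encodes Sca-1, was lower in old mice by a log2 difference of −0.73 without overlap of the arrays, but was not called. Of the 14 megakaryocyte markers, 14 were tested and 14 were higher in old mice, with a median log2 difference of 1.14. All 14 had an unadjusted p under 0.05, and Gp9 (1.21) was called. Their summed signal was between 99.2 and 197 times the 75th percentile on young and between 287 and 381 times on old arrays. Of the 8 tested granulocyte and monocyte markers, 7 were lower in old mice, with a median of −0.58, 5 at an unadjusted p under 0.05 and 0 called by limma, and sums of 983 to 1339 on young and 797 to 862 on old arrays. The summed markers of these 3 lists did not overlap between the ages, and their part in the Chdh difference was not tested. The gate list and the granulocyte and monocyte list share Mpo and Csf1r, so their sums are not separate. Mpo had the highest level in both lists, with means of 9.18 on young and 8.58 on old arrays. The sums are of linear signals, so the sum of the gate list is mostly that of Mpo. Of the 8 markers of the gate list, 1 was higher and 7 were lower in old mice, with a median log2 difference of −0.42. Of the 7 lower ones, 2 had an unadjusted p under 0.05 from limma, and 0 were called. The higher one was Kit (0.31), whereas Cd34 (−0.21) was lower, and the arrays of both genes overlapped between the ages. The summed signals of the erythroid, neutrophil, lymphoid, stem cell, mast cell and excluded-lineage lists overlapped between the ages. Their only called genes were Fcer1a (2.50) of mast cells and Hoxb5 (1.85) of stem cells, both higher in old mice. Of the 8 mast cell and basophil markers, 6 were higher and 2 lower in old mice, with a median log2 difference of 0.53. Of the 6 higher ones, 4 had an unadjusted p under 0.05 from limma. Their sums overlapped only narrowly, with 18.8 to 30.2 on young and 29.6 to 49.7 on old arrays. The B cell factors Ebf1 and Pax5 were well above background on none of the arrays.

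The chromosomal surroundings of Chdh were read from all genes with a probe within 100 kb of a Chdh probe. These were 6 gene names with 11 probes, of which 7 were tested and 0 were called by limma, with 1 at an unadjusted p under 0.05. The closest pattern was that of Il17rb, which encodes a receptor subunit for interleukin 25. Its probe A_55_P2124498 at chr14:30809354-30809413 (mm9, minus strand) read −3.17, −2.89, −2.997 and −3.44 on young and −3.92, −4.44, −5.06 and −4.93 on old arrays. All old arrays were below all young arrays, and only 2 of the old arrays were well above background. The log2 difference was −1.46 ± 0.27 (SE), with a 95% interval from −2.06 to −0.86, and limma gave an adjusted p of 0.0971, which does not pass the threshold. The differences within the slides were −1.45 and −1.47. Under normexp background correction the difference of this dim probe was −0.33. The second Il17rb probe was well above background on no array.

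The other neighbours differed little between the ages. Actr8, an actin-related protein of the INO80 chromatin remodeller, differed by 0.18 on the log2 scale between old and young mice, and the 2 probes of Selk, a selenoprotein of the endoplasmic reticulum, differed by 0.10 and 0.27. Cacna1d, a calcium channel subunit on the opposite strand behind the end of Chdh, differed by 0.01 at a probe that was well above background on 4 arrays. AY512916 differed by 0.01, and a probe of an unnamed minus-strand transcript at chr14:30758410-30758469 differed by −0.35. 

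**Figure D2:**
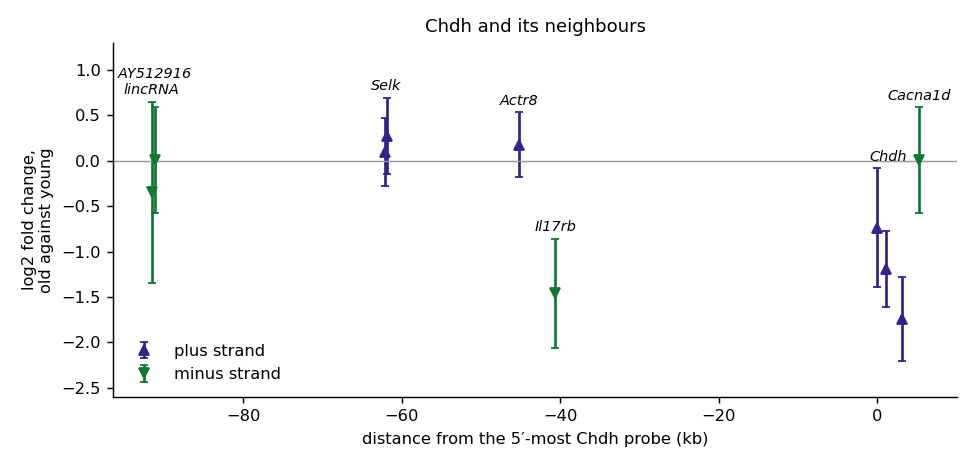
Log2 fold change between old and young mice (vertical axis, with 95% intervals from limma) of all tested probes within 100 kb of Chdh, against their distance in kb from the 5′ Chdh probe. Triangles point up for plus-strand and down for minus-strand probes. Il17rb (−1.46) and the 3 Chdh probes (−0.74, −1.19 and −1.74) lie below 0, while Selk, Actr8, Cacna1d and AY512916 lie at or above 0. The unnamed minus-strand transcript (−0.35) also lies below 0, with an interval that includes 0.

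Il17rb and Chdh start next to each other and are transcribed away from each other. In the RefSeq annotation of build GRCm38.p6, the promoter windows of both genes, each 300 bases long, share 203 bases. The 103 bases between their starts at chr14:30008897-30008999 are printed for the plus strand, which is the strand of Chdh, because they belong to both windows, and a GC box (GGGCGG, here as its reverse complement) is in capitals.
Chdh and Il17rb: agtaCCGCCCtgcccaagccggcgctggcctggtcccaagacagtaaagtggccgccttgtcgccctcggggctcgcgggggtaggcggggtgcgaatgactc
This stretch has a GC content of 69.9% and holds 10 CpG. Such an arrangement is not rare, as 1317 of 17492 protein-coding genes (7.53%) had a window that overlapped one facing away from it. Of the motifs searched on both strands, GGGCGG was in both windows, as in 35.7% of 32851 windows of this length. TGACTCA was also in both and occurred in 5.2% of all windows, and GATAAG was in both and occurred in 7.44%. CACGTG was in neither window and in 7.15% of all windows. CCGGAAG was likewise in neither, compared with 8.86%, and CCAAT in neither, compared with 37.4%. These matches describe the letters only.

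The genes whose pattern over the 8 arrays was most like that of the brightest Chdh probe were found by the root mean square difference of levels after each tested probe was centred on its own mean. By this measure, the other Chdh probes differed from it by 0.372 (A_52_P432570) and 0.772 (A_55_P2151817). The 5 closest genes were Inpp5j (0.200), Rbm47 (0.260), Il17rb (0.290), Nrg1 (0.309) and Plxna2 (0.317). Inpp5j, an inositol polyphosphate phosphatase, read between −3.80 and −3.08 on young and between −5.58 and −4.41 on old arrays, of which 1 was well above background. Rbm47, an RNA-binding protein, read between −2.78 and −2.50 on young and between −4.32 and −3.74 on old arrays. Nrg1, a ligand of ErbB receptors, read between 0.45 and 0.85 on young and between −2.22 and −0.58 on old arrays. In each of these genes all old arrays were below all young arrays, which follows from the way they were found. Plxna2, a semaphorin receptor, was well above background on no old array, so that only a bound of at least 2.39-fold lower could be given. The log2 differences of Inpp5j, Rbm47 and Nrg1 were −1.73, −1.30 and −1.93. With normexp background correction they became −0.28, −0.42 and −1.48.

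None of the other 9 genes was called. Of their 18 probes, 13 were tested, 0 were called by limma and 0 had an unadjusted p under 0.05, compared with 6.35% of all tested probes. The methods' t-test gave 0 calls after adjustment and an unadjusted p under 0.05 for 1 of these probes, A_55_P1970846 of Pemt. The lowest adjusted p from limma was 0.803. At the brightest tested probe, 4 genes were higher and 4 were lower in old mice, with a median log2 difference of 0.01, compared with −0.02 over all tested probes. A threshold that was missed does not show that the levels were equal, and the intervals below give the range of differences these arrays allow.

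**Figure D3:**
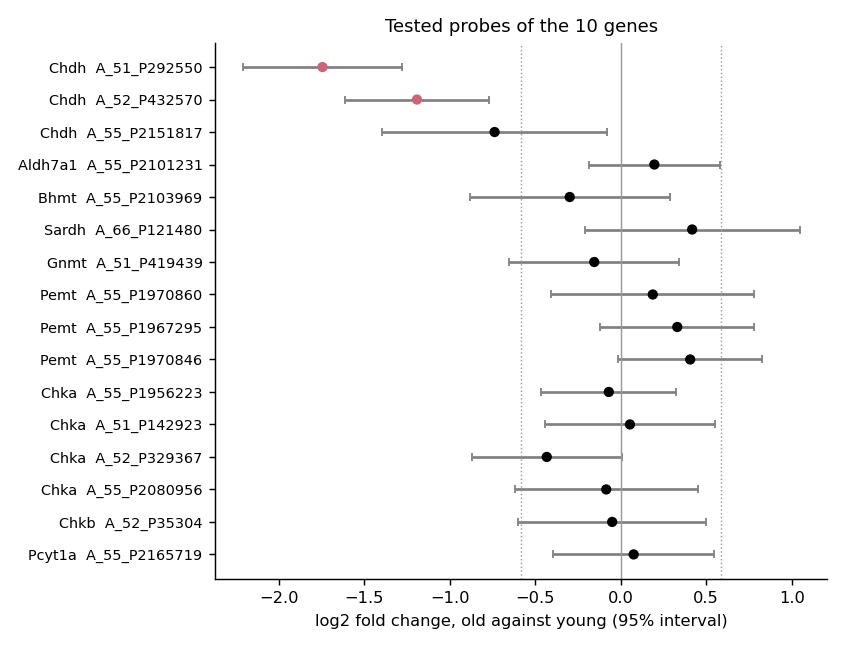
Log2 fold change between old and young mice with its 95% interval from limma for the 16 tested probes of the 10 genes. Red points passed the call rule, and dotted lines mark a 1.5-fold change. The intervals of all 13 probes outside Chdh include 0.

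Aldh7a1, which oxidizes betaine aldehyde, was measured well above background on all arrays by A_55_P2101231. It read between 2.43 and 2.79 on young and between 2.54 and 2.87 on old arrays. The log2 difference was 0.20, with a 95% interval from −0.18 to 0.58, and the arrays of both ages overlapped. Its second probe, from NM_138600, was well above background on no array.

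Bhmt, the betaine-dependent methyltransferase, was close to background in CMPs. Of its 4 probes, the 3 for NM_016668 were well above background on 3, 0 and 0 arrays and were not tested. The remaining probe, A_55_P2103969 at chr13:94395097-94395156 (minus strand), is assigned to ENSMUST00000124193 alone and was well above background on 7 arrays. It read between −4.17 and −3.35 on young and between −4.66 and −3.65 on old arrays, a log2 difference of −0.30 with a 95% interval from −0.88 to 0.28. Its differences within the slides were 0.06 and −0.66, so even its direction was not shared. Dmgdh, which demethylates dimethylglycine, was well above background on none of the 8 arrays, with readings between −7.38 and −6.37, and was not tested.

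Sardh, the sarcosine dehydrogenase, read −1.85, −2.27, −1.02 and −1.20 on young and −1.11, −1.44, −1.09 and −1.03 on old arrays. Young 3 and young 4 were lower than all other arrays, whereas young 6 was within the range of the old ones and young 5 just above it. The log2 difference of 0.42 had a 95% interval from −0.21 to 1.05, and it was 0.96 on the slide of these 2 low arrays and −0.13 on the other slide. Gnmt read between −1.47 and −1.06 on young and between −2.00 and −1.16 on old arrays. Its log2 difference was −0.15, with a 95% interval from −0.65 to 0.34.

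In the branch towards phosphatidylcholine, the 3 Pemt probes (NM_008819) were well above background on all arrays. A_55_P1970860 read 1.51, 1.80, 2.41 and 2.23 on young and 2.59, 2.36, 2.05 and 1.70 on old arrays. Young 3 and young 4 were again the lowest young arrays, and the ages overlapped. Its log2 difference was 0.19, with a 95% interval from −0.41 to 0.78. The other 2 probes differed by 0.33 and 0.41, with intervals from −0.12 to 0.78 and from −0.02 to 0.83. All 3 estimates were above 0, but the probes are not separate evidence, since they share a gene and 2 of them share 23 bases. Within the first slide the differences were 0.66, 0.64 and 0.70, and within the second they were −0.29, 0.03 and 0.11.

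Chka was the only one of these 9 genes with a tested probe whose arrays did not overlap. A_52_P329367 at chr19:3866971-3867030 (plus strand), which the design assigns to NM_001025566, read −1.73, −1.80, −1.12 and −1.39 on young and −2.06, −1.86, −1.89 and −1.97 on old arrays. The lowest young and the highest old array were 0.06 apart. The log2 difference was −0.43, with a 95% interval from −0.87 to 0.01 and an adjusted p of 0.803 from limma, and 4.44% of all tested probes had arrays that did not overlap, 1.58% of all with the lower level in old mice. The 3 probes for the transcript NM_013490 differed by −0.07, 0.05 and −0.08, and their arrays overlapped. The intervals of these 4 probes overlap each other, and a difference between the transcripts was not tested.

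Chkb, the other choline kinase, read between 1.62 and 2.26 on young and between 1.38 and 2.19 on old arrays. Its log2 difference was −0.05, with a 95% interval from −0.60 to 0.50. Pcyt1a, which makes CDP-choline, read between 2.57 and 3.36 on young and between 2.78 and 3.06 on old arrays, with young 3 the highest of all. Its log2 difference was 0.08, with a 95% interval from −0.39 to 0.54. The sign of these small differences is not settled, as described with the alternatives in the closing section.

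**Figure D4:**
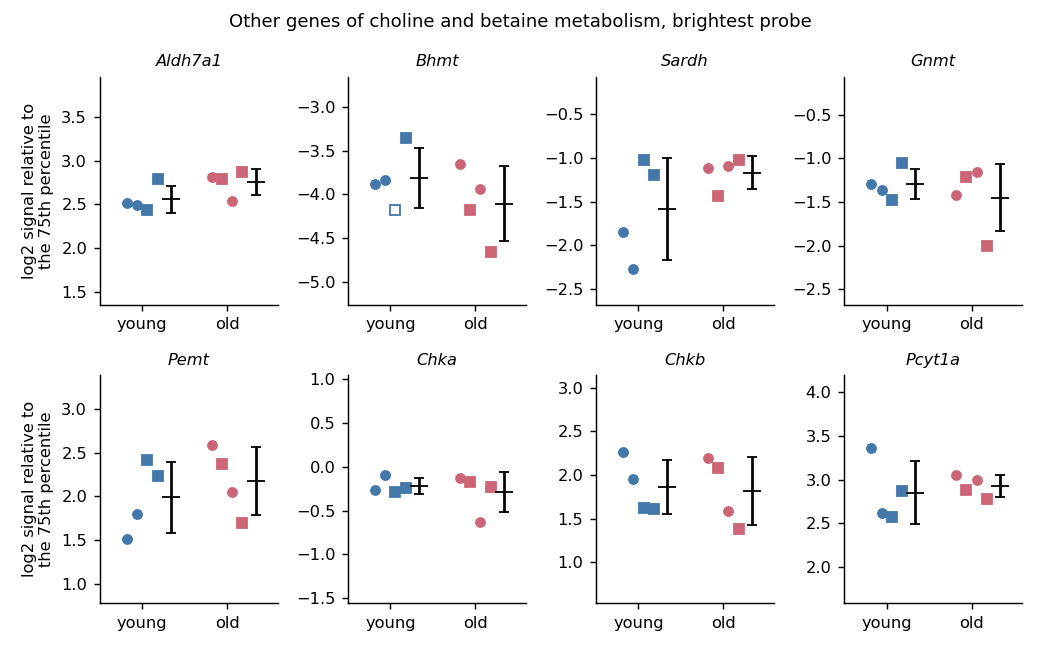
Levels of the brightest probe of the 8 further genes that were tested, as log2 values with the array's 75th percentile at 0, by age. Circles and squares are arrays of the first and second slide, an open symbol is not well above background, and bars give mean and SD of 4 arrays. Each vertical axis spans the same range, the ages overlap in every gene, and young 3 and young 4 are the lowest young arrays of Sardh and Pemt.

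The wider pathway was read from 10 lists with 85 genes, of which 75 were not among the genes above. Of these 75, 74 were on the array, 55 were tested and 13 were well above background on no array. None was called by limma. On any probe, 4 had an unadjusted p under 0.05. At the brightest probe, 2 had an unadjusted p under 0.05 and a higher level, and 1 had a lower level, together 5.45% compared with 6.63% of the brightest probes of all tested gene names. The methods' t-test gave 0 calls after adjustment and an unadjusted p under 0.05 at any probe of 6 genes. Over all tested probes, 5.49% had such a p by this test. That is a share of probes, and a gene with several probes has several chances. No share at any probe was computed over all gene names, so the counts of 4 and 6 genes have no matching background. There were 30 genes with a higher and 25 with a lower level in old mice, and their median log2 difference was 0.02. At the brightest probe, 4 of the 55 tested genes had arrays that did not overlap between the ages. Over all tested probes this share was 4.44%, so little is read from the genes without overlap named below.

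Of the 10 genes for choline uptake, 4 were tested and 4 were lower in old mice, with a median log2 difference of −0.19 and none called. Slc44a2, a choline transporter-like protein, had the lowest estimate among them with −0.24 (95% interval −0.61 to 0.13), and Flvcr1, a choline and haem transporter listed as Mfsd7b on the array, had the highest with −0.05. The high-affinity transporter Slc5a7 was well above background on no array. Outside the 10 genes of the opening, the extremes of the CDP-choline pathway were Pcyt1b (0.64), an enzyme of the same step as Pcyt1a, and the cholinephosphotransferase Chpt1 (−0.06). The phosphatidylethanolamine branch lay between Ptdss2 (0.23), a phosphatidylserine synthase, and the ethanolamine kinase Etnk1 (−0.09). Among genes of choline release and sphingomyelin, the sphingomyelin synthase Sgms1 differed by 0.38 and the phospholipase Pld2 by −0.48. Smpd1, the acid sphingomyelinase, had arrays that did not overlap at a difference of 0.34, with an adjusted p of 0.830 from limma.

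The only tested betaine transport gene was Slc6a20a (−0.06). Acetylcholinesterase, encoded by Ache, was higher by 0.53 without overlap of the arrays, with an adjusted p of 0.729 from limma, whereas the acetylcholine-forming enzyme Chat was well above background on no array. In the methionine cycle and transsulfuration, Mtap of methionine salvage differed by 0.45 and cystathionine β-synthase, encoded by Cbs, by −0.32. Among the folate genes, Aldh1l1, a formyltetrahydrofolate dehydrogenase, differed by 0.77 and the folate receptor Folr1 by −0.74, both without overlap of the arrays, with adjusted p-values of 0.723 and 0.257 from limma. The flavoproteins that pass on the electrons of Dmgdh and Sardh were close to 0, with Etfa at 0.15 and Etfb at −0.01.

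**Figure D5:**
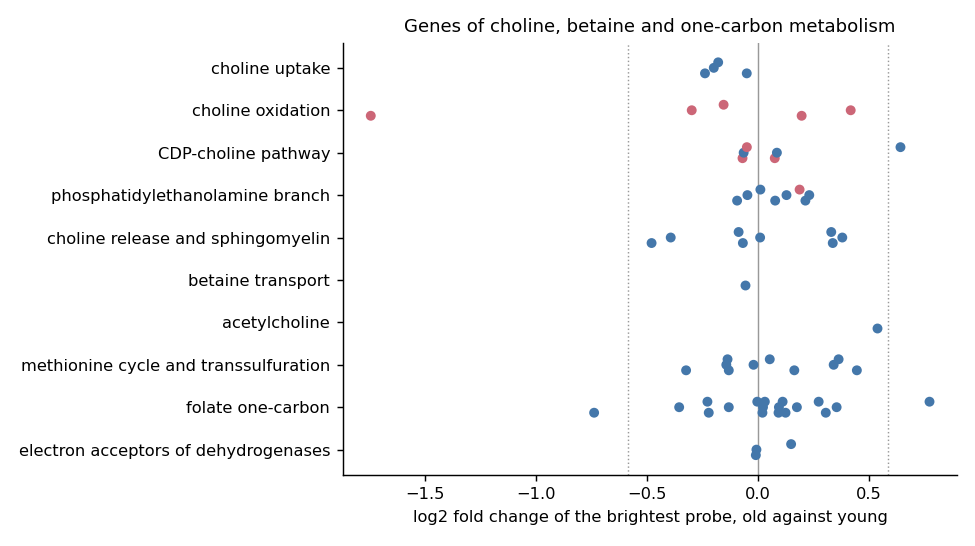
Log2 fold change between old and young mice of the brightest probe of each tested gene, by pathway list. Red points are the genes Chdh to Pcyt1a of the opening, blue points are further genes, and dotted lines mark a 1.5-fold change. Chdh (−1.74) lies apart to the left, as it was chosen with its lower signal in old mice already known. The blue points lie between −0.74 (Folr1) and 0.77 (Aldh1l1).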

How the data were processed

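Arrays of 8 CMP samples were analysed, 4 of young and 4 of old mice, grouped by the labels. The authors labelled the RNA, hybridized 1 array per sample and read the scans with Agilent Feature Extraction 10.7.3.1. The deposited intensity of each spot is on a linear scale and corrected for background by that software, and probe coordinates are those of mm9. The authors also deposited a table of log2 values, scaled by a 75th percentile shift with the median of all samples as baseline, which was used as an alternative only. It joins probes of a gene, so that Chdh has 1 value there.

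From the intensities of 59305 non-control spots, log2 values minus the array's 75th percentile were computed. Outlier spots, between 141 and 230 per array, were left out, and spots of a probe were averaged. The 33495 probes well above background on at least 4 arrays, with 23177 gene names, were fitted with limma 3.58.1 in R 4.3.3 (lmFit and eBayes), and p-values were adjusted by the Benjamini-Hochberg method. A gene of a list is given by the probe with the highest mean level. Named were all probes of the 10 genes, the largest rise and fall in each pathway list and called genes of these lists, the genes within 100 kb of Chdh, and the 5 genes most like it. Smpd1, Gp9, Fcer1a, Hoxb5, Itgam, Cd3e, Ly6a, Slc5a7 and Chat were chosen after their values were seen. The members and lists were chosen with earlier results of these data known. The fit was tested on simulated data. Mice were analysed individually per the study's methods. Arrays give no read depth, and their number limits the precision. Promoter sequences are from RefSeq (GRCm38.p6), and no coordinates were converted between builds. Replicate numbers 3, 4 and 5 occur at both ages, but samples with the same number did not deviate together (correlations of −0.09, −0.14 and 0.15), so that they were not paired. The alternatives were the series table, normexp background correction, normalization by quantiles or by the median, no filter on dim probes or all 8 arrays, the mean of a gene's probes, an intensity trend with robust variances, the methods' t-test, the slide or the replicate number as a block, and leaving out each array. The methods' t-test is the one the study gives for unpaired samples in general, as it names no test for the arrays.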

Additional observations from a re-analysis of the deposited data

How the results depend on the processing

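The 46 results were recomputed under 19 alternatives, 11 of which left out no array. Results on neighbours, pathway genes, megakaryocyte markers and the genes most like Chdh were added to these after the data were seen. The number of the 10 genes that were called, 1 in the main setting, was 0 with the methods' t-test after adjustment and 0 with the replicate block, and between 0 and 1 when each array was left out, with 0 without old replicate 3 and without old replicate 5. In the other alternatives it was 1, and it was always Chdh. The log2 difference of Chdh at A_51_P292550 was −1.17 with normexp background correction, −1.40 in the series table and −1.22 as the mean of its probes, and −1.88 to −1.60 with 1 array left out. The replicate block gave −1.84 for it. That of A_52_P432570 was −0.57, −1.40 and −1.22 under the first 3 of these and that of A_55_P2151817 was −0.05, −1.40 and −1.22. The number of pathway genes called was 0 under every alternative, and Il17rb was called under none, with adjusted p-values from 0.051 to 1.0 and log2 differences from −1.79 to −0.33. The median log2 difference of the megakaryocyte markers stayed between 0.98 and 1.26. Over all gene names, 48 were called higher and 10 lower, compared with 75 and 21 with normexp, 53 and 3 with quantile normalization, 58 and 5 with the shift to the median, 55 and 6 in the series table, 24 and 2 without a filter, 32 and 6 with the filter on all 8 arrays, 77 and 15 with the trend, 32 and 4 with the slide block, 12 and 1 with the replicate block and 0 and 0 with the t-test, which had 1838 probes at an unadjusted p under 0.05. With 1 array left out, 22 to 37 were called higher and 2 to 6 lower. The shift to the median moved the median of all tested probes from −0.02 to 0.10.

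Only small differences of genes that were not called changed sign, in 14 results. With normexp these were Bhmt (0.010), Chka A_55_P2080956 (0.034), Chkb (0.014) and Chpt1 (0.038). With the shift to the median they were Chka A_55_P1956223 (0.048) and A_55_P2080956 (0.033), Chkb (0.068), Chpt1 (0.053), Etfb (0.108), Etnk1 (0.024), Flvcr1 (0.067) and Slc6a20a (0.058). In the series table they were Chka A_51_P142923 (−0.056), Cacna1d (−0.0072) and Etfb (0.060), and as the mean of probes Chka A_51_P142923 (−0.133). With the replicate block they were Chka A_51_P142923 (−0.112) and A_55_P2080956 (0.074), Cacna1d (−0.250), Etfb (0.064) and Slc6a20a (0.040). With 1 array left out, the ranges were −0.046 to 0.212 for Chka A_51_P142923, −0.122 to 0.044 for A_55_P1956223, −0.196 to 0.110 for A_55_P2080956, −0.177 to 0.094 for Chkb, −0.251 to 0.029 for Gnmt, −0.018 to 0.243 for Pcyt1a, −0.208 to 0.127 for AY512916, −0.122 to 0.220 for Cacna1d, −0.239 to 0.084 for Chpt1, −0.073 to 0.050 for Etfb, −0.301 to 0.125 for Etnk1, −0.262 to 0.142 for Flvcr1 and −0.167 to 0.088 for Slc6a20a. The cause was not tested. A dim probe such as A_55_P2151817 is limited by its signal over background, and normexp adds its offset to every signal by construction.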
